A study of Mus musculus with 8 samples.

Results

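The 4 adult globin genes of the mouse and 3 further genes of red blood cells were examined in RNA of the brachiocephalic artery, a large branch of the aorta that is prone to plaques in mice without ApoE. The 7 genes were Hba-a1, Hba-a2, Hbb-bs, Hbb-bt, Alas2, Slc4a1 and Epb42, of 49585 genes listed. They were chosen by symbol, with TPM values of these same libraries already known, so their levels and treatment differences are a description and not an independent test. All mice were ApoE-deficient and were put on a high-fat diet at the age of 12 weeks to induce plaques. Of 8 samples, 4 were from mice injected with antibody HMD1-5, which blocks the Notch ligand Dll1, and 4 from mice injected with non-immune IgG. Both groups received 250 micrograms into the peritoneum 2 times per week. Sex, age at collection and whether a sample is a single animal were not given in the sources used here, so the p-values speak only for the spread of these samples, part of which may be technical.

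Red blood cells carry oxygen on hemoglobin, a tetramer of alpha and beta globin chains with 1 heme each. The genes are transcribed in erythroid precursors of the marrow and spleen, under factors such as Gata1 and Klf1. Young red cells that still hold RNA, called reticulocytes, carry these messages into the circulation. Hba-a1 and Hba-a2 encode alpha globin, and Hbb-bs and Hbb-bt encode adult beta globin. Alas2 is the erythroid form of the first enzyme of heme synthesis. Slc4a1 is band 3, the chloride and bicarbonate exchanger of the red cell membrane, and Epb42 is protein 4.2, which binds band 3 to the membrane skeleton. An artery collected with blood in its lumen, or a plaque that holds blood, contains red cells beside the cells of its wall.

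The libraries bore the number 045 or 076, whose meaning was not given, and are treated as a set for each number. In set 045 the IgG libraries were C1IA and C2IA, and in set 076 they were G1IA and G2IA. Each set had its own antibody libraries, which bore the same names, D1IA and D2IA, in both. The share of TPM on nuclear protein-coding genes was between 0.848% and 3.10% in the libraries of set 045, and between 21.2% and 24.2% in those of set 076. Levels are therefore given as TPM rescaled so that the 21721 nuclear protein-coding genes sum to 1000000 in each library, called the protein-coding scale. Whole reads could be recovered for 12943 of 17814 detected protein-coding genes. They summed to 481957 to 1945301 per library in set 045 and to 5393420 to 5725358 in set 076, so counting error was larger in set 045. Smooth muscle markers, which define the arterial wall, summed to 477 to 843 in set 045 and to 3458 to 4495 in set 076. All 5 of them were called higher in set 076 by limma, beside 2.67% of all genes tested.

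Hba-a2 and Hbb-bs were among the most abundant protein-coding transcripts of these arteries, and Hba-a1 and Hbb-bt ranked lower. Together the 4 globins took 0.919% (C1IA) and 0.806% (C2IA) of the protein-coding total with IgG and 4.43% (D1IA) and 0.930% (D2IA) with the antibody in set 045. Their share in set 076 was 2.35% (G1IA) and 1.69% (G2IA) with IgG and 7.33% (D1IA) and 1.93% (D2IA) with the antibody. In each set the antibody library named D1IA held the highest share, and the other antibody library lay close to the IgG libraries. Hba-a2 ranked 1 and Hbb-bs ranked 2 among protein-coding genes in D1IA of set 076, and in D1IA of set 045 Hbb-bs ranked 1 and Hba-a2 ranked 2. In the other 6 libraries Hba-a2 ranked 2 to 15 and Hbb-bs 4 to 11. Over all libraries Hba-a1 ranked 5 to 309 and Hbb-bt 15 to 255.

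Hba-a2 stood at 3919 (C1IA) and 3649 (C2IA) with IgG and 16648 (D1IA) and 3473 (D2IA) with the antibody in set 045. In set 076 it stood at 10748 (G1IA) and 7394 (G2IA) with IgG and 33039 (D1IA) and 8856 (D2IA) with the antibody. D1IA was 4.25 times the next library in set 045 and 3.07 times in set 076, while D2IA was the lowest library of set 045 and lay between the IgG libraries of set 076. The treatment groups overlapped in both sets. Hba-a1 was lower, at 1139 (C1IA) and 427 (C2IA) with IgG and 3974 (D1IA) and 1112 (D2IA) with the antibody in set 045, and at 2574 (G1IA) and 1790 (G2IA) with IgG and 8114 (D1IA) and 2093 (D2IA) with the antibody in set 076. It had the same order of libraries in set 076 as Hba-a2.

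Hbb-bs stood at 3482 (C1IA) and 3486 (C2IA) with IgG and 20072 (D1IA) and 4242 (D2IA) with the antibody in set 045. Its level in set 076 was 8987 (G1IA) and 6851 (G2IA) with IgG and 28221 (D1IA) and 7286 (D2IA) with the antibody. Both antibody libraries were above both IgG libraries in set 045, and in set 076 D2IA lay between the IgG libraries. Hbb-bt stood at 648 (C1IA) and 495 (C2IA) with IgG and 3641 (D1IA) and 473 (D2IA) with the antibody in set 045, and at 1205 (G1IA) and 853 (G2IA) with IgG and 3912 (D1IA) and 1014 (D2IA) with the antibody in set 076. Its D1IA libraries were 5.62 and 3.25 times the next library of their set, and both sets overlapped between treatments.

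Alas2 followed the globins at a level far below them. It stood at 54.1 (C1IA) and 48.3 (C2IA) with IgG and 208 (D1IA) and 36.6 (D2IA) with the antibody in set 045, where it rested on 36 to 96 reads. In set 076 it stood at 129 (G1IA) and 86.8 (G2IA) with IgG and 340.2 (D1IA) and 106 (D2IA) with the antibody, from 496 to 2009 reads. D1IA was again the highest library of each set, and D2IA lay below both IgG libraries in set 045 and between them in set 076. Its rank among protein-coding genes ran from 433 in D1IA of set 076 to 6154 in D2IA of set 045.

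The membrane genes were low and did not follow that order in full. Slc4a1 stood at 10.8 (C1IA) and 2.89 (C2IA) with IgG and 38.4 (D1IA) and 18.5 (D2IA) with the antibody in set 045, from 10 to 37 reads. The values of set 076 were 5.61 (G1IA) and 3.70 (G2IA) with IgG and 14.6 (D1IA) and 8.65 (D2IA) with the antibody, from 43 to 176 reads. In both sets the values of the antibody libraries lay above those of the IgG libraries without overlap. The counting intervals of Slc4a1 did overlap, between D2IA and C1IA in set 045 and between D2IA and G1IA in set 076. Epb42 stood at 0.445 (C1IA) and 0.261 (C2IA) with IgG and 1.92 (D1IA) and 3.16 (D2IA) with the antibody in set 045, from 1 to 7 reads, so the counting intervals of those libraries overlapped. In set 076 it stood at 0.773 (G1IA) and 0.621 (G2IA) with IgG and 1.35 (D1IA) and 1.01 (D2IA) with the antibody, from 8 to 18 reads. The counting intervals of Epb42 overlapped between treatments in set 076 as well. By value alone, its antibody libraries lay above the IgG libraries in both sets, with D2IA the highest of set 045.

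**Figure D1:**
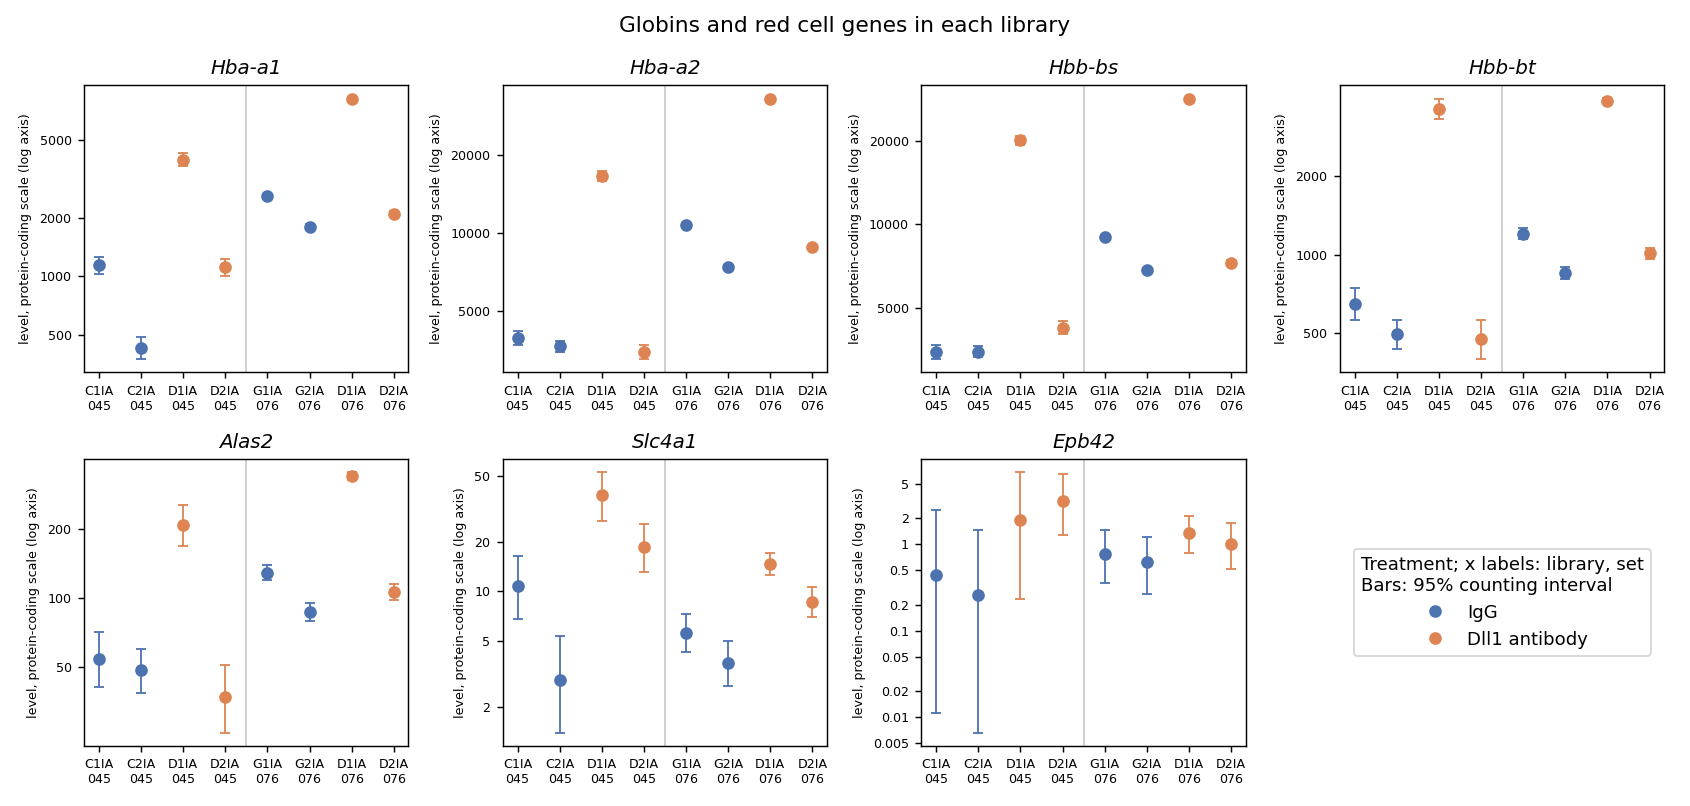
Level of each gene in the 8 libraries on the protein-coding scale (log axis), with IgG libraries in blue and antibody libraries in orange. Bars are 95% Poisson intervals of the recovered reads and cover counting error only. D1IA is the highest library of each set in every panel except Epb42, where D2IA is the highest of set 045.

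On the protein-coding scale, D1IA was the highest of the 4 libraries in both sets for 6 of the 7 genes, all but Epb42. Of all 18170 genes tested, 3.44% had that order, a share that counts ties, such as a gene at 0 in a whole set. For the 4 globins and Alas2, D1IA was 3.49 to 5.62 times the next library in set 045 and 2.65 to 3.25 times in set 076. For Slc4a1 it was 2.07 times and 1.69 times. D1IA of set 045 had the lowest protein-coding share of all libraries, 0.848%, and the fewest recovered reads, 481957. The order and the folds in set 045 depended on the scale. In deposited TPM, Hba-a2 stood there at 141 in D1IA and 113 in C2IA, and Alas2 at 1.77 and 1.49. Slc4a1 stood at 0.3256 in D1IA and 0.3264 in D2IA. D1IA of set 045 and D1IA of set 076 are separate libraries, and the labels do not tie them to each other.

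With the mean of each set removed, each gene's log2 level was compared with the mean of the other members over the 8 libraries. Pearson's r was 0.969 for Hba-a1, 0.953 for Hba-a2, 0.970 for Hbb-bs, 0.952 for Hbb-bt and 0.918 for Alas2. It was lower for Slc4a1, at 0.835, and for Epb42, at 0.50. The points share their libraries, and the D1IA libraries lie far from the rest, so these values are a description of 8 libraries only.

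The near-identical copies limit what can be said of each globin alone. The longest open reading frames of Hba-a1 and Hba-a2 both had 429 bases, differed at 1 base and encoded the same protein of 142 residues. Of the stretches of 50 bases in the Hba-a2 transcript, 89.3% also occurred in Hba-a1. For Hbb-bs and Hbb-bt the reading frames had 444 bases, with 1 base different and the same protein of 147 residues, and 58.3% of the Hbb-bt stretches occurred in Hbb-bs. Hba-a2 and Hbb-bs shared 0 such stretches. How the authors assigned reads that match both copies was not given in the sources used here, so the split within a pair is uncertain. The alpha to beta ratio of TPM rests on that split through the unequal exon lengths of the copies, of 812 and 667 bases for Hba-a1 and Hba-a2 and of 768 and 703 bases for Hbb-bs and Hbb-bt. It would also depend on whether reads that match both copies were kept, since the alpha pair shares more of its sequence than the beta pair.

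Alpha and beta globin transcripts were present at near equal levels. The ratio of alpha to beta TPM within a library was 1.22 (C1IA) and 1.02 (C2IA) with IgG and 0.870 (D1IA) and 0.972 (D2IA) with the antibody in set 045. In set 076 it was 1.31 (G1IA) and 1.19 (G2IA) with IgG and 1.28 (D1IA) and 1.32 (D2IA) with the antibody, and 1.15 ± 0.171 (SD, n = 8) over all libraries. By reads, with no division by length, the mean ratio was 1.05 ± 0.157 (SD, n = 8). In set 045 both antibody libraries lay below both IgG libraries, and in set 076 the treatments overlapped. The mean was 1.02 ± 0.149 (SD, n = 4) in set 045 and 1.27 ± 0.0574 (SD, n = 4) in set 076. Pooled over the sets, the ratio was 1.19 ± 0.119 (SD, n = 4) for IgG and 1.11 ± 0.223 (SD, n = 4) for antibody. The pooled spread includes the difference between the sets, and no test was run on these ratios. Hbb-bs exceeded Hbb-bt by 5.38 to 8.97 times, with a mean of 7.10. Hba-a2 exceeded Hba-a1 by 4.07 to 4.23 times in set 076 and by 3.12 to 8.55 times in set 045. The value of 8.55 was in C2IA, where 1720 reads of Hba-a2 stood beside 245 of Hba-a1.

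Globin TPM per TPM of Alas2 stayed within 167 to 254 over the 8 libraries, although globin levels differed widely. In set 045 it was 170 (C1IA) and 167 (C2IA) with IgG and 213 (D1IA) and 254 (D2IA) with the antibody. Alas2 rested there on 36 to 96 reads. The treatments overlapped in set 076, at 183 (G1IA) and 195 (G2IA) beside 215 (D1IA) and 182 (D2IA). Globin TPM per TPM of Slc4a1 varied more, from 503 to 2785 in set 045 and from 2226 to 5005 in set 076. Within each set the lowest globin to Slc4a1 ratio was in D2IA, an antibody library. In D2IA the globins were near the IgG libraries while Slc4a1 was above them.

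**Figure D2:**
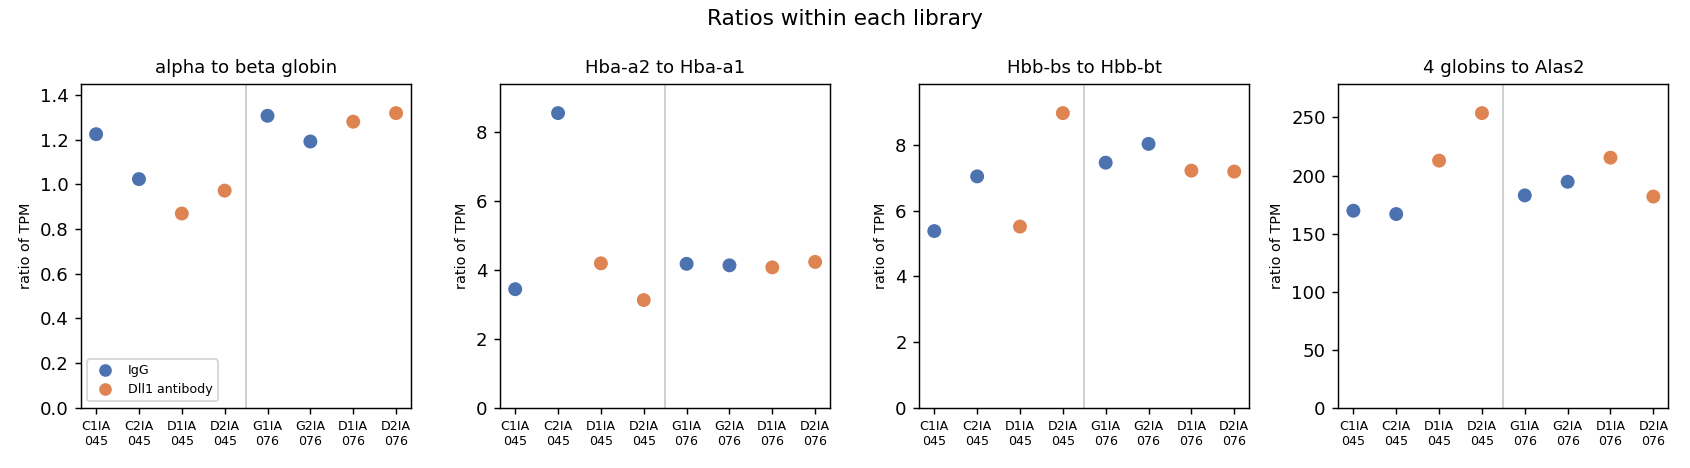
Ratios of TPM within each of the 8 libraries, with IgG libraries in blue and antibody libraries in orange and 1 point per library. The ratio of alpha to beta globin lies between 0.870 and 1.32, and the ratio of Hba-a2 to Hba-a1 reaches 8.55 in C2IA of set 045.

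The antibody and IgG libraries were compared with limma on log2(value + 1) of the protein-coding scale in a fit that held the set as a further term. A fold change on this scale understates the change of low genes such as Epb42. The log2 difference, antibody minus IgG, was 1.27 (SE 0.58) for Hba-a1, 0.97 (SE 0.56) for Hba-a2, 1.14 (SE 0.57) for Hbb-bs and 1.09 (SE 0.65) for Hbb-bt. It was 0.80 (SE 0.55) for Alas2, 1.59 (SE 0.46) for Slc4a1 and 0.86 (SE 0.49) for Epb42. All 7 point estimates were above 0, with a median of 1.09, beside a median of -0.07 over all genes, of which 40.9% were above 0. None of the 7 passed the threshold, each with a limma adjusted p of 1.00. Over all genes 0 of 18170 (0%) were called, 278 had an unadjusted p under 0.05, and limma-voom on recovered reads also called 0 of 13441. In bulk tissue, a difference in the number of cells of a type and a difference in RNA per cell cannot be told apart.

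The differences of the 4 globins and Alas2 were smaller without either D1IA library. Without D1IA of set 045, the log2 difference over both sets was 0.83 for Hba-a1, 0.51 for Hba-a2, 0.64 for Hbb-bs, 0.48 for Hbb-bt and 0.32 for Alas2. Without D1IA of set 076 it was 0.94, 0.60, 0.80, 0.73 and 0.46 for the same genes in that order. Slc4a1 stood at 1.29 and 1.53 without each of these libraries, and at 1.18 without C2IA of set 045. Epb42 stood at 0.86 and 0.92 without each D1IA library and at 0.72 without C2IA of set 045. It depended more on the scale, at 1.61 with a pseudocount of 0.1, 0.30 with a pseudocount of 5 and 1.42 by limma-voom, none past the threshold. On deposited TPM, where the median over all genes was -0.17, Slc4a1 stood at 0.53 and Hba-a2 at 0.55, and no member passed the threshold there. The pseudocount of 1 exceeded the TPM of Slc4a1 in set 045, at 0.0896 (C2IA) to 0.326 (D2IA), so its change is understated on that scale.

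Within set 045 the log2 differences were 1.59 (SE 0.84) for Hba-a1, 1.01 (SE 0.83) for Hba-a2, 1.41 (SE 0.82) for Hbb-bs, 1.21 (SE 1.05) for Hbb-bt, 0.77 (SE 0.88) for Alas2, 2.03 (SE 0.77) for Slc4a1 and 1.37 (SE 0.84) for Epb42. Within set 076 they were 0.94 (SE 0.71), 0.94 (SE 0.71), 0.87 (SE 0.71), 0.97 (SE 0.69), 0.84 (SE 0.60), 1.14 (SE 0.43) and 0.36 (SE 0.44) for the genes in the same order. No member passed the limma threshold in either set, where 0 of 18170 genes (0%) were called in set 045, with 793 at an unadjusted p under 0.05, and 3 (0.0165%), all lower with the antibody and none a member, in set 076. In set 076 without D1IA the differences of the 4 globins were -0.11 to -0.000223, and that of Slc4a1 was 0.79. In set 045 without D1IA, Hba-a2 stood at -0.12, Hbb-bt at -0.26, Alas2 at -0.47, Hba-a1 at 0.67 and Hbb-bs at 0.28. The interaction of treatment and set called 0 of 18170 genes (0%), with 924 at an unadjusted p under 0.05, so no member was shown to differ in its treatment difference between the sets.

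Both antibody libraries lay above both IgG libraries for 3 of the 7 genes in set 045 (Hbb-bs, Slc4a1 and Epb42), beside 14.2% of all genes tested. In set 076 this held for 2 of the 7 genes (Slc4a1 and Epb42), beside 7.99% of all genes. It held in both sets for Slc4a1 and Epb42, beside 0.66% of all genes, or 120 genes. Nothing is read from these counts, since values of the same libraries were known when the genes were chosen. Epb42 rested on 1 or 2 reads in 3 libraries of set 045.

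**Figure D3:**
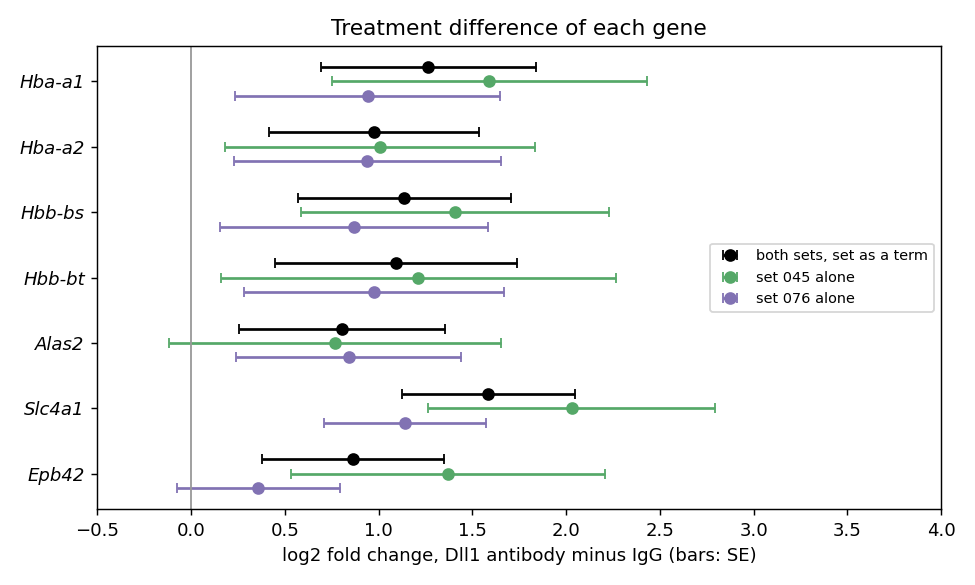
Log2 fold change, antibody minus IgG, of each gene over both sets with the set as a term and within each set alone, on the protein-coding scale. Bars are standard errors of the limma fit. All 7 point estimates lie above 0, and none passes the threshold.

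Between the sets, with treatment as a term, the log2 difference of set 076 minus set 045 was 1.30 (SE 0.58) for Hba-a1, 1.20 (SE 0.56) for Hba-a2, 0.90 (SE 0.57) for Hbb-bs, 0.72 (SE 0.65) for Hbb-bt and 1.07 (SE 0.55) for Alas2. It was -0.73 (SE 0.46) for Slc4a1 and -0.18 (SE 0.49) for Epb42, beside a median of -0.27 over all genes. None of the 7 was called by limma, where 2.67% of all genes were called higher and 6.84% lower in set 076. Of the 1729 genes called, 486 were higher. With quantile normalization 1409 were called, 818 of them higher, with a median of 0.01 over all genes, and Hba-a2 passed the threshold at a limma adjusted p of 0.032. On deposited TPM, where the median of all genes was 2.17, 10888 of the 10898 called were higher. There the difference of Slc4a1 turned to 1.13, and it, the 4 globins and Alas2 passed the threshold. The set and the share of TPM on protein-coding genes moved together and cannot be told apart.

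The sequence just before the start of each gene was read from RefSeq (GRCm38.p6), which held 6 of the 7 genes, all but Slc4a1. Erythroid promoters are known for GATA motifs, bound by Gata1, and CACCC boxes, bound by Klf1, beside the CCAAT box and the TATA box of strongly transcribed genes. The 250 bases before the start are shown for the most abundant alpha globin, for both beta globins and for Alas2, which together stand for alpha globin, beta globin and heme synthesis. They lie at chr11:32296242-32296491 on the plus strand for Hba-a2, chr7:103827929-103828178 on the minus strand for Hbb-bs, chr7:103813924-103814173 on the minus strand for Hbb-bt and chrX:150547167-150547416 on the plus strand for Alas2. They are written 5′ to 3′ on the strand of the gene, and capitals mark the motif GATAA, the motif CACCC, the motif CCAAT and the motif TATAA on either strand, where adjoining motifs run together.
Hba-a2: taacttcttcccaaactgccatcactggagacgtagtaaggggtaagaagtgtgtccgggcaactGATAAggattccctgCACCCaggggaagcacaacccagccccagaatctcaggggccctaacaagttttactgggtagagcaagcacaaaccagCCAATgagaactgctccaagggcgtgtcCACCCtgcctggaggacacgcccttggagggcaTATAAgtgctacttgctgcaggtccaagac
Hbb-bs: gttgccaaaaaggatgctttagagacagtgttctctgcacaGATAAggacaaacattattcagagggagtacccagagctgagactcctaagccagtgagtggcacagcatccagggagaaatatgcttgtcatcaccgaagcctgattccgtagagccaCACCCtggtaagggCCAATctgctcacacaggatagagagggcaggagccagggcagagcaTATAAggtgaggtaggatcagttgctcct
Hbb-bt: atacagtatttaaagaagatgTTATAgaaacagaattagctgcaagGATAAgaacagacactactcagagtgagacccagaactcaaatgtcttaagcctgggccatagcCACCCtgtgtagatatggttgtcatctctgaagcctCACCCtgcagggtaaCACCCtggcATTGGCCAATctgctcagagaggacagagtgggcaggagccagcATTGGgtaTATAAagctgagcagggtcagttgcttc
Alas2: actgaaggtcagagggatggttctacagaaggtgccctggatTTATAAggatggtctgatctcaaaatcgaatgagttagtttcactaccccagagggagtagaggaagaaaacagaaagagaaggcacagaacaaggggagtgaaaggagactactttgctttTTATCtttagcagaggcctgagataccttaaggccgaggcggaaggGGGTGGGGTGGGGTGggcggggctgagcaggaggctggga
GATAA or its reverse complement occurred in 6 of the 6 sequences and in 22.6% of 32851 mouse promoters of the same length. TATAA occurred in 6 of 6 beside 22.8%, CACCC in 5 of 6 beside 52.0%, and CCAAT in 4 of 6 beside 33.8%. In the globins a forward TATAA match began between base -30 and base -27 from the start. The Alas2 matches lay from -208 to -203, and the Epb42 match, on the reverse strand, from -125 to -121. Hbb-bt held 3 matches to CACCC and Hbb-bs held 1, Alas2 held no CCAAT, and Epb42 held neither CACCC nor CCAAT. The Hba-a1 sequence shared an unbroken run of 247 bases with that of Hba-a2. These matches describe the letters in the window and show neither a site in use nor a cause of the levels.

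Other red cell genes were counted from 4 lists, of membrane and skeleton genes, heme and iron genes, regulators and further genes, with 61 genes in all and 55 that passed the filter on low values. None of the 55 passed the limma threshold for treatment, 34 had a positive and 21 a negative difference, and the median was 0.12 beside -0.07 over all genes. Bpgm, which makes the 2,3-bisphosphoglycerate that lowers the oxygen affinity of hemoglobin, stood at 24.5 to 41.0 in the IgG and 53.2 to 65.4 in the antibody libraries of set 045. The corresponding ranges in set 076 were 43.0 to 47.6 and 47.7 to 85.3, and its difference was 0.68 (SE 0.26), short of the limma threshold. Its values did not overlap between treatments in either set, but in set 076 G1IA with IgG (47.6) and D2IA with the antibody (47.7) were nearly equal. Klf1 also showed no overlap, but rested on 10 reads in all.

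D1IA was the highest library of both sets for 10 of the 55 other red cell genes, beside the 3.44% of all genes given above. Among them were Epb41, Slc25a37, Blvrb, Myb, Bpgm, Car1, Car2 and Trim10. The membrane list had 11 of 17 differences above 0, with a median of 0.37, and the heme and iron list 5 of 14, with a median of -0.07. The regulators had 6 of 10 above 0, with a median of 0.04, and the further genes 12 of 14, with a median of 0.18. Gata1 rested on 14 reads over the 8 libraries, so Gata1 and Klf1, the regulators of red cell precursors, were close to the limit of detection. In the set comparison 6 of the 55 genes were called lower in set 076 and 0 higher, beside 6.84% and 2.67% of all genes.

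The embryonic globins Hba-x, Hbb-bh1, Hbb-bh2 and Hbb-bh0 were listed at 0 in all 8 libraries. A count of 0 allows up to 3 reads, which is 1.30 to 16.7 on the protein-coding scale for Hba-x and 1.99 to 25.5 for Hbb-bh1, far below the adult globins. The limit was looser for Hbb-bh0, at 9.46 to 121, and was 2.19 to 28.0 for Hbb-bh2. Hbb-y, another embryonic beta globin, had reads in 1 library, C2IA of set 045. Of the alpha-like theta globins, Hbq1b had reads in 3 libraries, at up to 3.37, and Hbq1a in 1 library, at 0.770.

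By likeness of pattern, 8 genes other than the members had the highest Pearson r with the mean of the members over the 8 libraries, set means removed, among 13666 genes. They were Pmepa1 (r = 0.969), Rsad2 (r = 0.966), Lbhd1 (r = 0.963), Slc25a37 (r = 0.952), Murc (r = 0.939), Rps27rt (r = 0.934), Apol11b (r = 0.928) and Mcpt4 (r = 0.926). Slc25a37, or mitoferrin, imports iron into mitochondria for heme synthesis. It stood at 33.6 (C1IA) and 30.1 (C2IA) with IgG and 59.7 (D1IA) and 33.3 (D2IA) with the antibody in set 045 and at 44.3, 30.5, 57.0 and 42.5 in G1IA, G2IA, D1IA and D2IA of set 076. The 8 points include both D1IA libraries, which stand apart, and r is given with no test.

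Among markers of other blood cells and of neighbouring tissue, the platelet and skeletal muscle sums were highest in D1IA of both sets. The neutrophil and B cell sums were not. By gene, D1IA was highest in both sets for 4 of the 13 platelet markers and 3 of the 5 skeletal muscle markers. The latter include Pvalb, which was 0 in all of set 045. The 13 platelet markers summed to 434 (C1IA) and 598 (C2IA) with IgG and 645 (D1IA) and 157 (D2IA) with the antibody in set 045, and to 125, 134, 268 and 205 in G1IA, G2IA, D1IA and D2IA of set 076. The 14 neutrophil markers were highest in D1IA of set 045, at 1265, but in D2IA of set 076, at 1132, where D1IA stood at 192. The 8 B cell and plasma cell markers summed to 8334 and 12679 in the IgG libraries of set 076 and to 516 and 906 in its antibody libraries. In set 045 the treatments overlapped for these markers, at 1392 and 150 in the IgG libraries beside 412 and 190 in the antibody libraries. The 5 skeletal muscle markers summed to 53.1 (C1IA), 6.89 (C2IA), 64.4 (D1IA) and 4.15 (D2IA) in set 045, the same order of libraries as Hba-a2, Hbb-bt and Alas2 there. Of that sum, Acta1 made up 31.4 in C1IA and 44.1 in D1IA, while Mylpf and Ckm were highest in C1IA, at 13.6 and 3.31. In set 076 they summed to 78.5 (G1IA), 10.5 (G2IA), 3676 (D1IA) and 258 (D2IA). The part of skeletal muscle or platelets in the globin result was not tested. The 12 genes of hemoglobin and heme clearance, such as Hp, the plasma hemoglobin binder haptoglobin, had 9 differences above 0 and 3 below, with a median of 0.16, and none was called. Within set 045 10 were above 0 and 2 below, with a median of 0.31, and within set 076 4 were above and 8 below, with a median of -0.11.

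**Figure D4:**
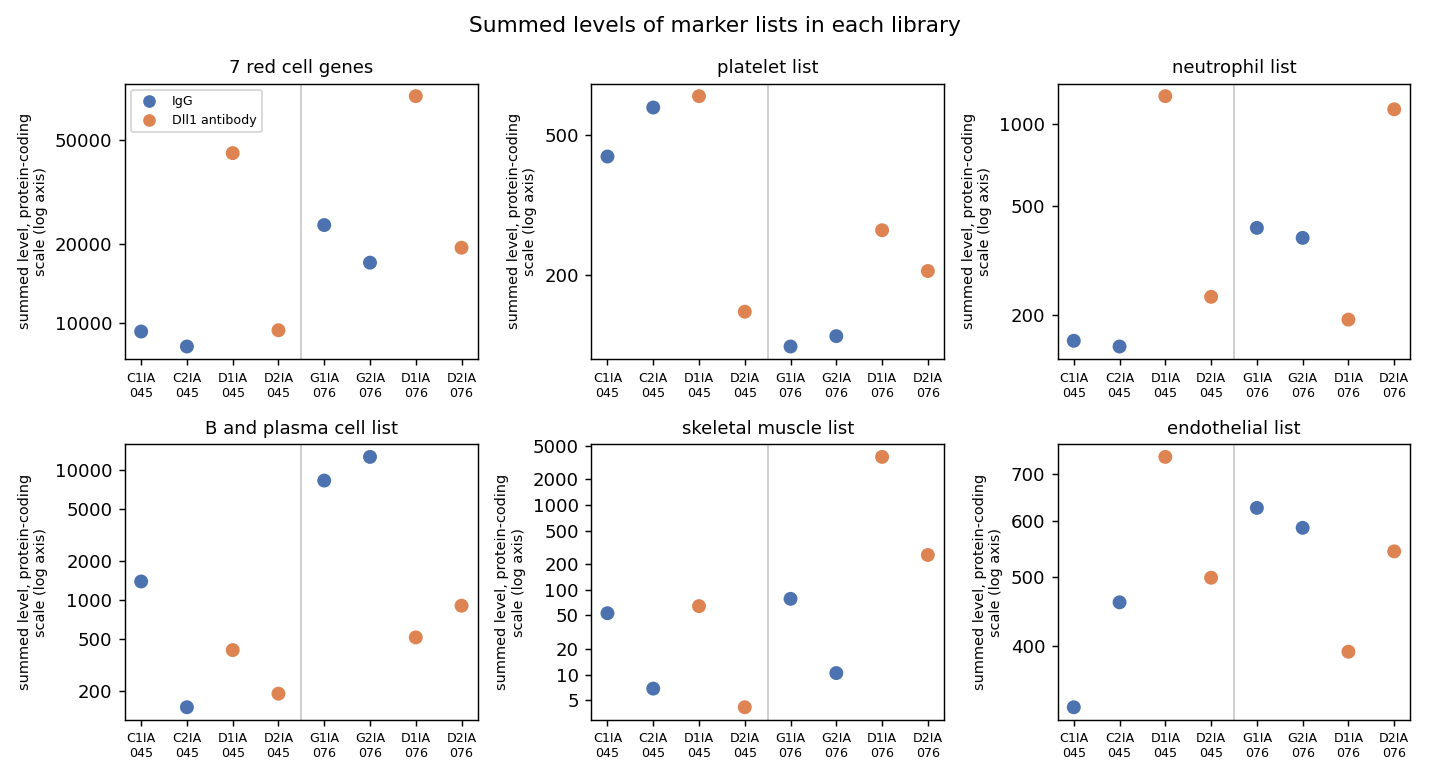
Summed level of the markers of blood cells and neighbouring tissue in each of the 8 libraries on the protein-coding scale (log axis), with IgG libraries in blue and antibody libraries in orange. The platelet sum is highest in D1IA within each set, the neutrophil sum is highest in D1IA of set 045 and D2IA of set 076, and the skeletal muscle sum reaches 3676 in D1IA of set 076.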

How the data were processed

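Libraries that keep the strand were made from 100 ng of TRIZOL-extracted RNA after ribosomal RNA was removed, per the labels' protocols. The authors deposited 1 table of TPM with 1 column per library, summing to 1000000 over all genes listed. Aligner, counting tool and annotation were not given in the sources used here. The build named in the submitters' processing notes, hg19, is human, while the deposited identifiers are mouse, so coordinates are printed only for RefSeq sequences of GRCm38.p6. Of 49585 identifiers, 49326 were in GENCODE M21, which gave gene types and exon lengths. Columns name groups but not the numbered samples of the labels, so each column was a replicate of its group.

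TPM was rescaled to the protein-coding total. TPM times exon length came to a whole number of steps, each read as 1 sequenced fragment, for 19715 of 25386 detected genes (77.7%, relative tolerance 1e-04) and all 7 members. limma 3.58.1 in R 4.3.3, trended and robust, was run on log2(value + 1) for the 18170 genes whose mean reached 1, with the set as a term. Tests were two-sided, with Benjamini-Hochberg adjustment across those genes and a threshold of 0.05. The fits were tested on simulated data. Intervals are 95% Poisson intervals and, like the limit of 3 reads for a count of 0, cover counting error only. The members and lists were chosen with earlier results of these data known. Named genes were the members, genes of the lists, and the 8 of highest r with a mean of at least 5. Alternatives were deposited TPM, other totals, quantile normalization, pseudocounts of 0.1 and 5, other filters, limma-voom and leaving out libraries. Some genes of the lists are counted but not reported here by name.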

Additional observations from a re-analysis of the deposited data

Results flagged for a closer look

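The ratio of Hba-a2 to Hba-a1 TPM was 8.55 in C2IA of set 045, far above the other 3 IgG libraries, of which the nearest was 4.18 and the farthest 3.44. In D2IA of set 045 the same ratio was 3.12, below the other 3 antibody libraries, of which the nearest was 4.07 and the farthest 4.23. Both were found among 22 groups of 4 values examined for a sample far from the others, and chance marks about 1 in 20 such groups. Both copies share most of their sequence, and the part of read assignment in these ratios was not tested.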

How the results depend on the processing

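All 128 values of the members' treatment difference over both sets kept their direction and stayed short of the threshold under every alternative run. With deposited TPM, limma called 1 gene for treatment over both sets, 20 in set 076, 134 for the interaction and 10898 between the sets. With no filter it called 3 in set 045, 0 in set 076 and 913 between the sets. With a pseudocount of 5 it called 5 in set 076 and 3 for the interaction, with a mean of at least 5 it called 10 in set 076, and with no trend and not robust 0 in set 076, 2 for the interaction and 773 between the sets. Xist stood above 1 TPM in C1IA and D2IA of set 045 only, and without these libraries 407 were called between the sets. Leaving out 1 library at a time gave 0 to 0 calls in set 076, beside 3 with all libraries, 0 to 5 for the interaction and 145 (without D1IA of set 076) to 3008 (without D1IA of set 045) between the sets, beside 1729. Alas2 in set 045 was -0.0371 with deposited TPM, and the set difference of Slc4a1 was 1.13. Leaving out 1 library, set 045 gave Hba-a2 -0.12 to 2.14, Hbb-bt -0.26 to 2.68 and Alas2 -0.47 to 2.01. Set 076 gave Hba-a1 -0.0361 to 1.92, Hba-a2 -0.00951 to 1.89, Hbb-bs -0.11 to 1.85 and Hbb-bt -0.000223 to 1.95, each lowest without D1IA. With 1 antibody library left, it is assumed to vary like the others. Hba-a2 passed the threshold between the sets with quantile normalization. Epb42 was too low to be tested under some alternatives, and its few reads limit it. Except where the setting itself removes libraries or genes, the cause was not tested. No paired analysis was possible because the columns carry no replicate numbers of the labels.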
